A study of Homo sapiens with 12 samples.

Results

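Mutated ETV4 (ETV4AAA) was set against wild-type ETV4 (ETV4WT) in 22Rv1 cells, a human prostate carcinoma line with luminal features. The libraries were chosen by the cell line and construct in their labels, and they are 4 of the 12 RNA libraries in the series, 2 with each form of ETV4. The ETV4AAA group carried MSCV-ETV4AAA-IRES-eGFP and the ETV4WT group MSCV-ETV4WT-IRES-eGFP, and 2 further 22Rv1 libraries with the empty vector (MSCV-IRES-eGFP) give the level without added ETV4. The same 3 constructs, with 2 libraries each, were also put into PC3, a prostate cancer line from a bone metastasis that lacks prostate-specific antigen. All of these cells therefore carried a lentivirus and eGFP, and all were sorted as living, eGFP-positive cells 1 week after infection, before their polyadenylated RNA was sequenced. The labels do not say whether the libraries of a group came from separate infections, so that the p-values measure the spread between these libraries, which may be technical. The sources used here do not name the residues that are mutated in ETV4AAA, and ETV4 protein was not measured.

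ETV4 belongs with ETV1 and ETV5 to the PEA3 subfamily of ETS transcription factors, which bind DNA at GGAA cores and act downstream of growth factor receptors and the kinase ERK. In prostate cancer these factors can be raised by gene fusions or by loss of their degradation. The ubiquitin ligase COP1 recognises a short stretch in PEA3 proteins and marks them for destruction, so the amount of their protein need not follow the amount of their mRNA.

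The 22Rv1 libraries held 41698738 to 44258398 counts with ETV4AAA, 50111792 to 50226044 with ETV4WT and 45275349 to 45929158 with eGFP, and mitochondrial transcripts took 8.05% to 9.81% of them. Levels below are CPM, a gene's counts as a share of its library's total after scaling by TMM factors. They do not correct for gene length, so levels are compared between libraries and not between genes. A log2 change is ETV4AAA over ETV4WT with its standard error (SE), from 2 libraries a side, and a gene is said to rise, fall or change where its p from edgeR's quasi-likelihood test, adjusted by Benjamini-Hochberg over 23238 tested genes, was under 0.05. RNA of a cell population was measured, so fewer cells of a kind and less RNA per cell cannot be told apart. Of the markers of 22Rv1, FOLH1 had 141 and 157 CPM with ETV4AAA, 314 and 283 with ETV4WT and 247 and 281 with eGFP, against at most 0.0201 in any PC3 library.

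ETV4 mRNA (ENSG00000175832, chr17:43527844-43579620) was similar with either form. It stood at 390 and 281 CPM in ETV4AAA libraries, 385 and 484 CPM in ETV4WT libraries and 31.2 and 24.9 CPM in eGFP libraries. The ETV4AAA and ETV4WT libraries overlapped, both were well above eGFP, and the log2 change of -0.37 ± 0.33 did not pass (adjusted p = 0.471). That fit takes its spread from all 12 libraries, PC3 included. With only the libraries compared in the fit, the log2 change was -0.34 ± 0.17 (edgeR adjusted p = 0.166). The counts do not separate the introduced transcript from the cells' own.

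The other PEA3 factors were lower with ETV4AAA. ETV1 (ENSG00000006468, chr7:13891228-13991425) had 5.12 and 5.62 CPM in ETV4AAA libraries, 11.2 and 11.9 in ETV4WT libraries and 23.4 and 24.7 in eGFP libraries. Its log2 change was -1.11 ± 0.14 (adjusted p = 0.000107). ETV5 (ENSG00000244405, chr3:186046308-186110318) had 2.66 and 3.30 CPM with ETV4AAA, 5.77 and 5.06 with ETV4WT and 12.6 and 13.1 with eGFP, with a log2 change of -0.86 ± 0.14 (adjusted p = 0.000757). For both genes the 3 groups did not overlap, with ETV4AAA lowest and eGFP highest.

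**Figure D1:**
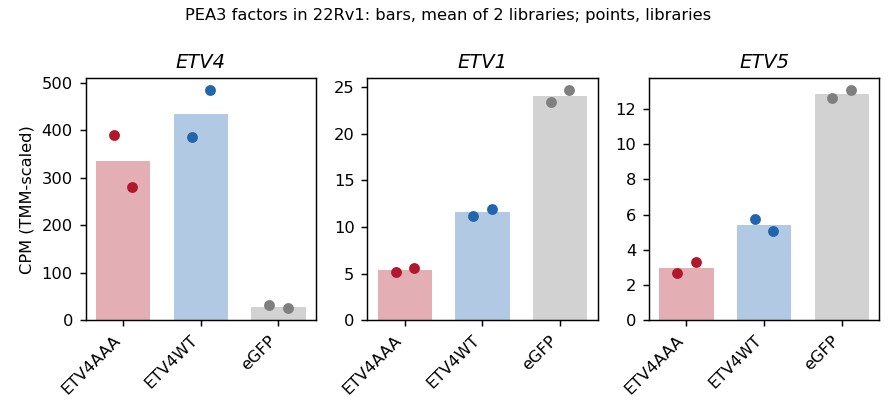
Scaled CPM (vertical axis, from 0) of ETV4, ETV1 and ETV5 in the 22Rv1 groups ETV4AAA, ETV4WT and eGFP; points are the 2 libraries of a group and bars their mean. ETV4 overlaps between ETV4AAA and ETV4WT, while ETV1 and ETV5 are lowest in ETV4AAA and highest in eGFP.

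Among 19 ETS factors tested, 5 rose and 3 fell, where 13.9% of all genes tested rose and 9.62% fell. Without ETV4AAA replicate 1 or ETV4WT replicate 2 the rises numbered 3, and ERG no longer passed in either case (adjusted p = 0.0525 and 0.0575). ETV6, a repressor of the family, had 57.7 and 56.6 CPM with ETV4AAA, against 19.8 and 23.3 with ETV4WT (log2 1.41 ± 0.13, adjusted p = 7.92e-06). ELK3, a ternary complex factor that ERK phosphorylates, had 8.63 and 8.45 CPM with ETV4AAA and 2.79 and 2.33 with ETV4WT (log2 1.74 ± 0.17). Neither overlapped between the groups. The other rises were ELF1, ETV3 and ERG and the third fall was the epithelial factor EHF, at 55.4 and 52.8 CPM with ETV4AAA against 73.5 and 75.8 with ETV4WT; these were named after their values were seen. The EHF call (adjusted p = 0.0319) was lost with DESeq2 size factors (adjusted p = 0.0511) and without any single library of the 4.

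COP1 itself had 54.6 and 60.1 CPM in ETV4AAA libraries and 55.4 and 51.7 in ETV4WT libraries, overlapping values that did not pass (log2 0.10 ± 0.17, adjusted p = 0.728). Of 11 genes of the COP1 degradation machinery tested, 2 rose and 2 fell, where 13.9% of all genes tested rose and 9.62% fell. The rises were the pseudokinases TRIB2 and TRIB3, relatives of the adaptor that brings substrates to COP1. TRIB2 had 4.24 and 3.70 CPM with ETV4AAA, 0.152 and 0.122 with ETV4WT and 0.0821 and 0.0206 with eGFP (log2 4.83 ± 0.26, adjusted p = 8.36e-08). TRIB3 had 321 and 272 CPM with ETV4AAA, 123 and 127 with ETV4WT and 232 and 200 with eGFP (log2 1.25 ± 0.17). ETV4WT was thus the lowest group for TRIB3, whereas for TRIB2 it lay above eGFP and far under ETV4AAA. The falls, TRIB1 and the ubiquitin ligase subunit RBX1, had log2 changes of -0.39 ± 0.11 and -0.50 ± 0.13.

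Across all genes the difference between the 2 forms was broad and lopsided in size. Of 23238 genes tested, 5455 (23.5%) changed, 3219 (13.9%) higher and 2236 (9.62%) lower with ETV4AAA. At an unadjusted p under 0.05 there were 7992. The median log2 change was 1.65 over the genes that rose, fitted values of genes at 0 counts included, and -0.79 over those that fell, against -0.03 over all genes tested. Among genes with a mean of at least 5 CPM in the higher group, 945 rose by a log2 change of 1 or more and 272 fell by as much. In the same genes 253 rose by 3 or more, and 0 fell by 3 or more. All 5455 changed genes had groups that did not overlap, as did 61.2% of all genes tested. The count of changed genes dropped to 3437 when the first ETV4AAA library was left out. The falls alone numbered 1015 in that fit, 1436 with the second ETV4AAA library omitted and 1306 with the first ETV4WT library omitted.

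**Figure D2:**
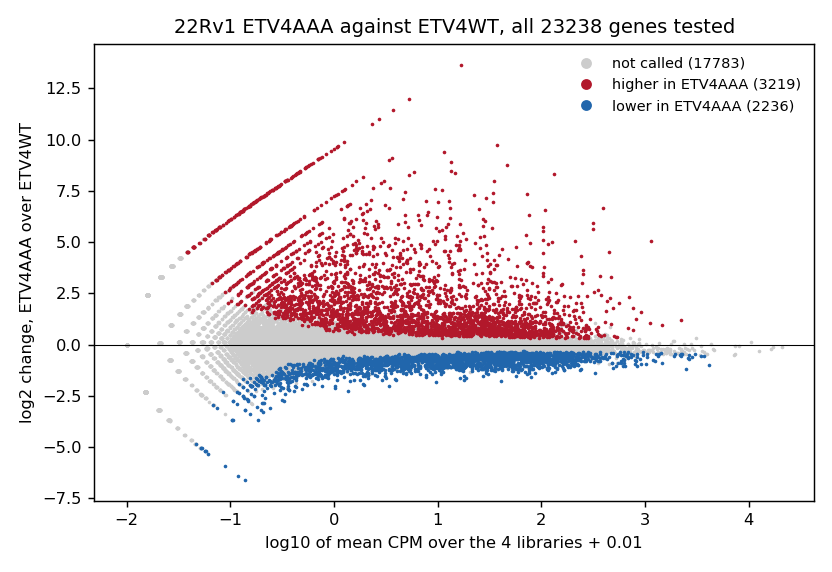
Log2 change of ETV4AAA over ETV4WT (vertical axis) against the log10 mean CPM of the 4 22Rv1 libraries plus 0.01 (horizontal axis) for all 23238 genes tested; red genes rose, blue genes fell, grey genes did not pass. Above about 5 CPM the rises reach past 8 on the log2 scale and the falls stay above -3; the slanted lines at the left are genes with few counts, whose fitted values depend on the prior count.

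Against the shared eGFP libraries, 7395 genes (31.8%) changed with ETV4AAA, 4054 higher (17.4%) and 3341 lower (14.4%), and 348 (1.50%) with ETV4WT, 246 higher (1.06%) and 102 lower (0.439%). Both counts rest on the same eGFP libraries and are given side by side. In 96 genes, 78 of them protein-coding, both ETV4AAA libraries had at least 1 CPM while both ETV4WT libraries stayed below 0.1 CPM (0.413% of genes tested). The reverse occurred in 0 genes.

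The 15 largest rises among well-expressed protein-coding genes stayed under 1 CPM in every ETV4WT and eGFP library. PAEP, which encodes the secreted lipocalin glycodelin, had 32.7 and 35 CPM in ETV4AAA libraries and 0 in every ETV4WT and eGFP library. It was at least 1070-fold higher with ETV4AAA, taking 3 counts over the ETV4WT group as the floor (adjusted p = 3.14e-07). The receptor LILRB1 (11 and 10.0 CPM with ETV4AAA), the coronin CORO2B (7.41 and 7.26) and the C-type lectin-like receptor CD93 (5.86 and 4.89) were also at 0 in both ETV4WT and both eGFP libraries. They were at least 333-fold, 232-fold and 171-fold higher with ETV4AAA. LILRB1 has close relatives, among which counting could have split reads, and the CD93 call was lost with the DESeq2 Wald test (adjusted p = 0.158).

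ARHGDIB, a regulator of small GTPases known from blood cells, had 22.0 and 24.3 CPM with ETV4AAA, 0.0653 and 0 with ETV4WT and 0.0205 and 0.0206 with eGFP. With 3 ETV4WT counts the ratio was 730, with a 95% interval of 250 to 3540 that covers counting error only. The calcium-dependent kinase gene CAMK1G (7.01 and 6.45 CPM with ETV4AAA, 1 ETV4WT count), the lectin receptor CLEC1A (6.46 and 7.85, 1 count), the matrix protein gene ITIH5 (12.6 and 10.9, 3 counts) and the protease cathepsin G, CTSG (10.6 and 10.5, 3 counts) behaved alike. Their ratios were 640 (114 to 25300), 677 (121 to 26800), 373 (127 to 1810) and 334 (114 to 1620). The CTSG call was lost with the DESeq2 Wald test (adjusted p = 0.273).

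Genes with more counts gave the same picture. TGFBI, an extracellular adhesion protein induced by TGF-beta, had 269 and 264 CPM with ETV4AAA, 0.806 and 0.878 with ETV4WT and 0.615 and 0.371 with eGFP (log2 8.30 ± 0.31, adjusted p = 8.02e-09). The myosin light chain gene MYL10 had 92.3 and 93.0 CPM with ETV4AAA, against 0.283 and 0.143 with ETV4WT and 0 in both eGFP libraries (8.76 ± 0.32). The hair follicle keratin KRT75 had 78.1 and 70.9 CPM with ETV4AAA, against 0.0653 and 0.102 with ETV4WT and 0 with eGFP (9.74 ± 0.43). In each of them the ETV4AAA libraries stood far above every other 22Rv1 library. The GABA receptor subunit GABRR1 (27.0 and 31.0 CPM with ETV4AAA, log2 8.38 ± 0.39), the gut mucin MUC2 (31.1 and 22.7, 8.46 ± 0.41) and the beta-glucan receptor CLEC7A (25.0 and 28.4, 8.91 ± 0.35) complete the 15, none of them above 0.131 CPM in an ETV4WT library.

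The promoters of 4 of these genes are shown because the genes moved together and PEA3 factors bind GGAA cores. They are the 4 with the most CPM in ETV4AAA libraries among the rises whose promoter is in the RefSeq table used (GRCh38.p14). Each is 250 bases before to 50 after the start, 5′ to 3′ on the gene's strand, with every AGGAAG, the PEA3 motif, or its reverse complement CTTCCT in capitals.
TGFBI: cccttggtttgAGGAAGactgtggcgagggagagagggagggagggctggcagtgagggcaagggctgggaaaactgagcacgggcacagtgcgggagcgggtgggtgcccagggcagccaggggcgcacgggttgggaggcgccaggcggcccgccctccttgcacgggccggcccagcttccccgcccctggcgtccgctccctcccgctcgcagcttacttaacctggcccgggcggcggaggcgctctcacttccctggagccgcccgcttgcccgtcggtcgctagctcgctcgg
KRT75: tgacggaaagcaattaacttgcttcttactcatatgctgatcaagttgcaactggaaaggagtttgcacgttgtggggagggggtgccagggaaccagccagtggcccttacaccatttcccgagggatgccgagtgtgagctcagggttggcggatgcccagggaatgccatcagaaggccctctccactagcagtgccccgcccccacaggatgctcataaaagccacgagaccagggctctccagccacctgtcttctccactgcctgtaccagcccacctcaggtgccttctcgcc
PAEP: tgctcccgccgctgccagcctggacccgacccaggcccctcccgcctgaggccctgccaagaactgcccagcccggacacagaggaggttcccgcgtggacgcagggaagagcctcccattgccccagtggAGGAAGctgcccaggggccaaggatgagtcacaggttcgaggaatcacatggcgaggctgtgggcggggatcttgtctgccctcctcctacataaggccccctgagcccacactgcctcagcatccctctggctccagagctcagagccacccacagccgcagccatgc
GABRR1: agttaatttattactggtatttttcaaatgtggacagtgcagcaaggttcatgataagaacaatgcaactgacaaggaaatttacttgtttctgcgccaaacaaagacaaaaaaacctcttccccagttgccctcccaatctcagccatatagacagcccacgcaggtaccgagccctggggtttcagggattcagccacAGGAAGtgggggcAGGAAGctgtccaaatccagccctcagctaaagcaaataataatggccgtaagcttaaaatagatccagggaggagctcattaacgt
The windows lie at chr5:136028738-136029037 (TGFBI, plus strand), chr12:52434322-52434621 (KRT75, minus strand), chr9:135561506-135561805 (PAEP, plus strand) and chr6:89217728-89218027 (GABRR1, minus strand). TGFBI and PAEP hold 1 match each, GABRR1 holds 2 and KRT75 holds 0. Promoters were found for 11 of the 15 rises, of which 7 (63.6%) hold AGGAAG on either strand, and for 11 of the 15 falls below, of which 4 (36.4%) do. The share among 13049 promoters of genes tested was 32.9%. The longer ETS motif CCGGAAGT was in 0 of the 11 rises and 7.3% of the 13049, and the AP-1 motif TGANTCA in 2 of the 11 (PAEP and MUC2) and 5.3%. The 3 motifs do not overlap in their letters beyond GGAAG, which the first 2 share; a match in so few windows is a description, not a binding site.

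**Figure D3:**
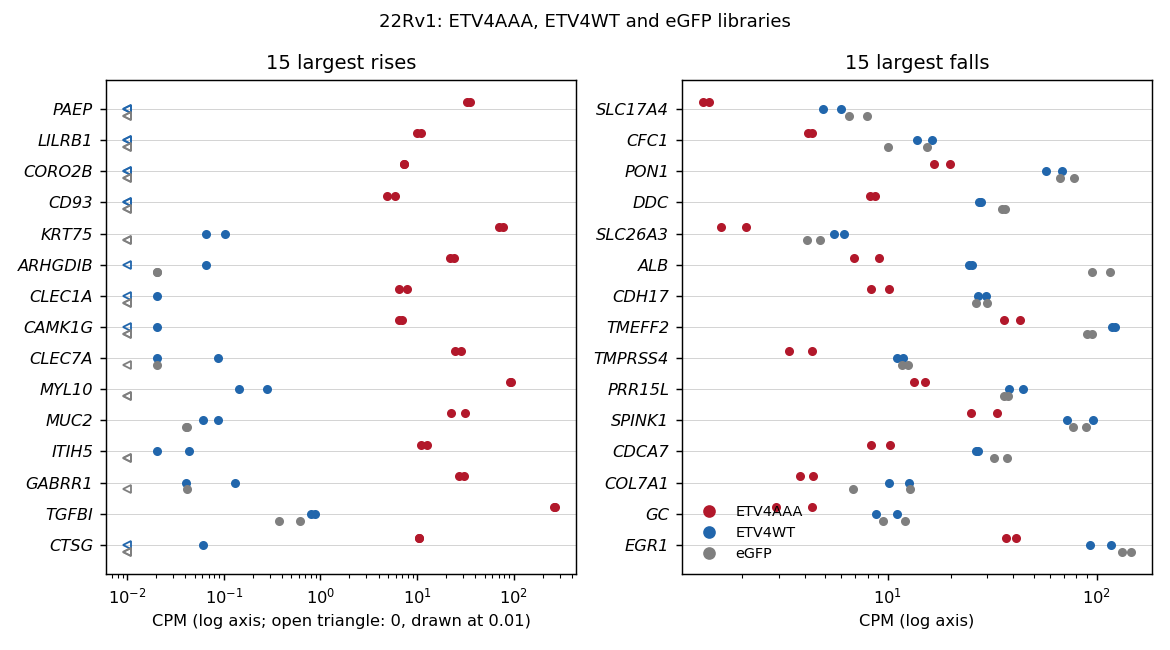
CPM on a log axis for the 15 largest rises (left) and 15 largest falls (right) in 22Rv1, with ETV4AAA in red above ETV4WT in blue and eGFP in grey; each symbol is 1 library and open triangles are 0 CPM drawn at 0.01. For every gene shown the ETV4AAA libraries lie apart from both ETV4WT libraries, which was a condition of the choice.

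Among the genes that rose with the lowest p-values, SPARC (chr5:151661096-151687165), a matricellular glycoprotein, had 2230 and 2225 CPM in ETV4AAA libraries, 69.9 and 65.2 in ETV4WT libraries and 0.0205 and 0 in eGFP libraries (log2 5.04 ± 0.15, adjusted p = 2.34e-09). NPR1 (chr1:153678637-153693992), the receptor for atrial natriuretic peptide, had 850 and 700 CPM with ETV4AAA, 7.14 and 8.08 with ETV4WT and 3.18 and 2.31 with eGFP (6.67 ± 0.20). The hyaluronan synthase HAS3 had 149 and 126 CPM with ETV4AAA and 3.57 and 3.18 with ETV4WT (5.35 ± 0.15), and the RAS-induced gene TMEM158 had 153 and 139 with ETV4AAA and 0.958 and 0.837 with ETV4WT (7.34 ± 0.22). For SPARC and NPR1, ETV4WT also lay above eGFP (adjusted p = 4.69e-10 and 0.000986), so the groups were ordered ETV4AAA, ETV4WT, eGFP. For HAS3 (adjusted p = 0.347) and TMEM158 (adjusted p = 0.111) the difference between ETV4WT and eGFP did not pass.

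Several of the largest falls are genes known from gut and liver. SLC17A4, a phosphate and urate carrier of the gut, had 1.40 and 1.31 CPM with ETV4AAA, against 4.90 and 5.96 with ETV4WT (log2 -2.0 ± 0.23, adjusted p = 0.000141). PON1, the paraoxonase of liver and plasma, had 16.7 and 19.9 CPM with ETV4AAA, against 68.1 and 57.1 with ETV4WT (-1.78 ± 0.17). Albumin, ALB, had 6.92 and 9.11 CPM with ETV4AAA, 25.3 and 24.4 with ETV4WT and 95.4 and 116 with eGFP (-1.63 ± 0.23). ALB was thus lowest with ETV4AAA and highest with eGFP, and the 3 groups did not overlap. Among other large falls were the intestinal cadherin CDH17 (-1.61 ± 0.22), the chloride exchanger SLC26A3 (-1.67 ± 0.20), the vitamin D-binding protein GC (-1.45 ± 0.24), the trypsin inhibitor SPINK1 (-1.53 ± 0.20) and the amino acid decarboxylase DDC (-1.71 ± 0.16). Of the 20 tested hepatic and gut genes 4 rose and 4 fell, with a median log2 change of 0.05 (-0.02 with genes at few counts set to their bound). Over all genes tested, 13.9% rose and 9.62% fell. Without ETV4AAA replicate 1 the list had 2 rises and 4 falls (median -0.21), and with only the 6 22Rv1 libraries fitted, where 14 members could be tested, 5 and 7 (median -0.45). The pioneer factor FOXA2 rose (12.9 and 10.1 CPM with ETV4AAA, 0.370 and 0.633 with ETV4WT, log2 4.51 ± 0.27), as did the mucosal protein AGR2 (46.1 and 62.2 against 9.36 and 6.90, 2.74 ± 0.19).

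The lowest p among the falls belonged to TMEFF2 (chr2:191949043-192195709), a transmembrane protein of prostate and brain, with 36.1 and 43.2 CPM in ETV4AAA libraries, 123 and 118 in ETV4WT libraries and 89.6 and 95.5 in eGFP libraries (-1.60 ± 0.14, adjusted p = 3.84e-06). The remaining large falls were CDCA7, PRR15L, TMPRSS4, EGR1, COL7A1 and CFC1, between -1.44 and -1.82 on the log2 scale. CFC1 shares nearly identical sequence with CFC1B, so its value is uncertain. COL7A1 (-1.47 ± 0.32, adjusted p = 0.00543) no longer passed without ETV4AAA replicate 2 (adjusted p = 0.0652) or without ETV4WT replicate 2 (adjusted p = 0.0565).

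Genes induced by ERK signalling rose in the main. Of 25 tested, 15 rose and 3 fell, where 13.9% of all genes tested rose and 9.62% fell. Their median log2 change was 1.79 against -0.03 over all genes. DUSP6 (chr12:89347232-89353271), the phosphatase that switches ERK off, had 848 and 873 CPM in ETV4AAA libraries, 37.4 and 38.2 in ETV4WT libraries and 12.7 and 14.4 in eGFP libraries (log2 4.51 ± 0.13, adjusted p = 2.34e-09). SPRY4, another feedback inhibitor, had 493 and 422 CPM with ETV4AAA, 20.4 and 25.7 with ETV4WT and 11.9 and 10.3 with eGFP (4.31 ± 0.15). DUSP4 (298 and 262 CPM with ETV4AAA against 34.9 and 37.8 with ETV4WT, 2.95 ± 0.12) and PHLDA1 (104 and 96.6 against 10.5 and 10.4, 3.26 ± 0.13) rose too. All 4 followed the order ETV4AAA, ETV4WT, eGFP without overlap. Each was also higher in ETV4WT than in eGFP (highest edgeR adjusted p of the 4, 0.00234). These 4 were taken as the called members with the lowest p. Of all genes tested, 61.2% had ETV4AAA and ETV4WT groups that did not overlap. The share with this order of all 3 groups was not computed.

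The 3 members that fell do not share that pattern. EGR1, an immediate early factor, had 41.1 and 36.8 CPM with ETV4AAA, 93.4 and 118 with ETV4WT and 146 and 132 with eGFP (-1.44 ± 0.15, adjusted p = 2.34e-05). The cyclin CCND1 had 1123 and 1021 CPM with ETV4AAA and 1374 and 1623 with ETV4WT (-0.48 ± 0.11, adjusted p = 0.00917), a call lost without ETV4AAA replicate 2 (adjusted p = 0.0627). The inhibitor SPRED2 had 23.3 and 22.3 CPM with ETV4AAA and 27.0 and 32.8 with ETV4WT (-0.39 ± 0.13, adjusted p = 0.0443), a call lost under most alternatives. CCND1 and SPRED2 were named after their values were seen. The next counts stand beside all genes tested, of which 13.9% rose and 9.62% fell. Among 23 immediate early factors tested, 8 rose and 6 fell, and 5 rose when ETV4AAA replicate 1 or either ETV4WT library was left out. JUN rose (191 and 143 CPM with ETV4AAA against 64.5 and 74.9 with ETV4WT, 1.26 ± 0.17), while FOS (34.6 and 32.9 against 80.9 and 88.9, -1.33 ± 0.19) and MYC (102 and 92.4 against 164 and 178, -0.81 ± 0.15) fell; these 3 were likewise chosen after their values were seen. IER5 (2.34 ± 0.17) and KLF10 (1.51 ± 0.11) rose.

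Of 27 genes reported as PEA3 factor targets, 17 rose and 0 fell with ETV4AAA, where 13.9% of all genes tested rose and 9.62% fell. Their median log2 change was 1.74 (1.77 with genes at few counts set to their bound). TWIST1, a transcription factor of mesenchyme, had 212 and 207 CPM in ETV4AAA libraries, 25.2 and 25.3 in ETV4WT libraries and 10.1 and 9.33 in eGFP libraries (3.05 ± 0.13, adjusted p = 1.65e-08). The cyclooxygenase PTGS2 had 29.7 and 30.7 CPM with ETV4AAA, against 1.02 and 1.43 with ETV4WT and 0.944 and 0.803 with eGFP (4.62 ± 0.24). The chemokine receptor CXCR4 had 24.6 and 26.2 CPM with ETV4AAA, against 1.31 and 0.837 with ETV4WT and 0.718 and 1.09 with eGFP (4.57 ± 0.24). TWIST1 was higher in ETV4WT than in eGFP (adjusted p = 9.95e-05), and for PTGS2 (adjusted p = 0.415) and CXCR4 (adjusted p = 0.726) that difference did not pass. The metalloproteinase ADAMTS1 rose by 2.80 ± 0.16. Of 20 tested matrix metalloproteinases, their TIMP inhibitors and plasminogen activation genes, 14 rose and 0 fell (median 1.73, 1.72 at the bound); TIMP3 had 16.3 and 15.6 CPM with ETV4AAA, 0.152 and 0.204 with ETV4WT and 0.656 and 0.453 with eGFP (6.46 ± 0.24).

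**Figure D4:**
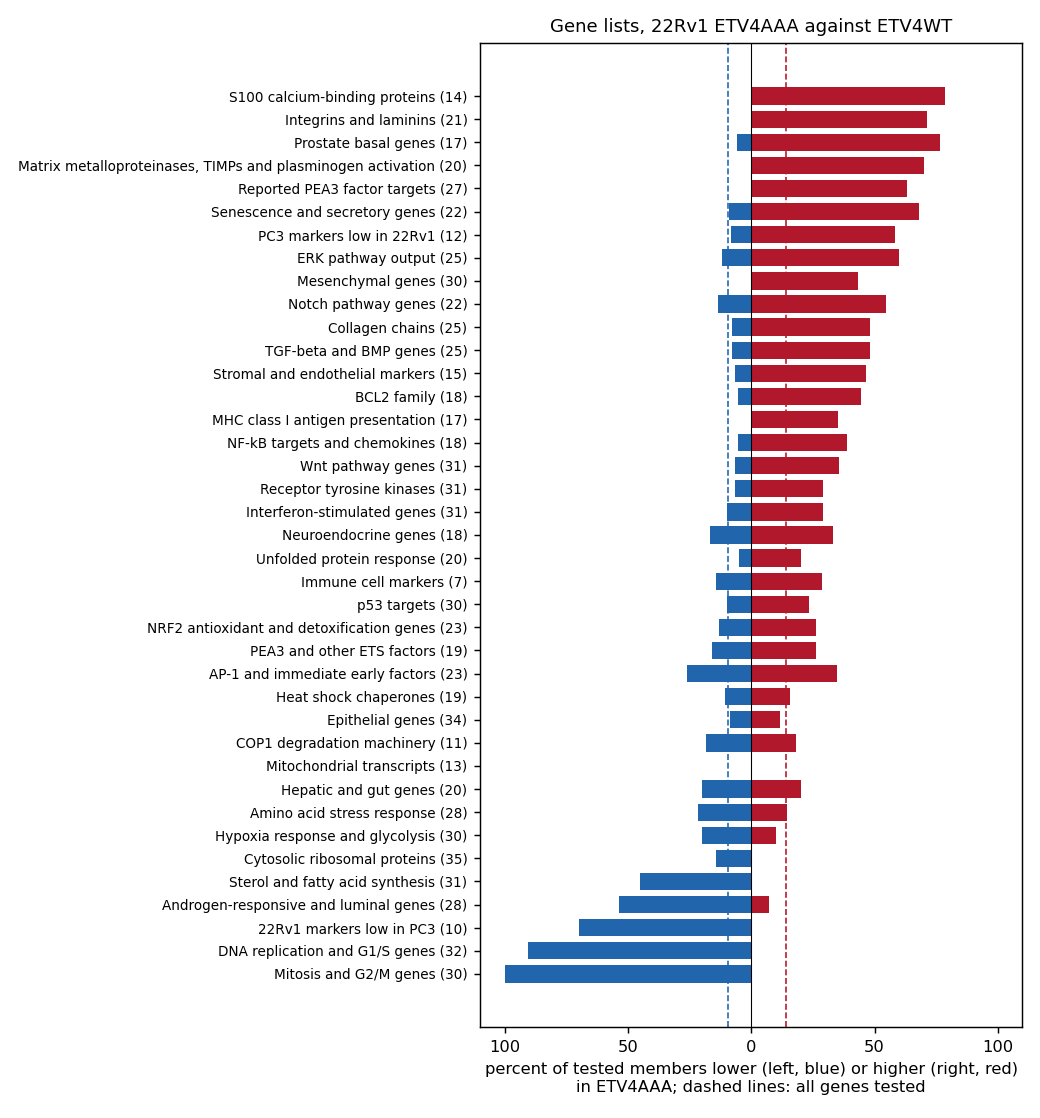
Percent of the tested members of each gene list that rose (red, to the right) or fell (blue, to the left) with ETV4AAA against ETV4WT in 22Rv1, with the number tested in brackets; dashed lines mark all genes tested, 13.9% higher and 9.62% lower. Matrix, integrin, basal, S100 and ERK output lists lie at the top, and cell cycle, 22Rv1 marker, luminal and sterol lists at the bottom.

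Matrix and adhesion genes rose as well. Of 21 integrins and laminins, 15 rose and 0 fell (median log2 0.95, 1.01 at the bound), where 13.9% of all genes tested rose and 9.62% fell. LAMB3, a chain of the basement membrane laminin of epithelia, had 700 and 538 CPM with ETV4AAA, 9.32 and 10.7 with ETV4WT and 4.57 and 2.72 with eGFP (5.95 ± 0.34, adjusted p = 1.21e-07). The laminin chain LAMA4 rose by 3.96 ± 0.14, and the laminin receptor subunit ITGA6 had 92.5 and 88.9 CPM with ETV4AAA against 4.62 and 5.43 with ETV4WT (4.17 ± 0.16). Of 25 collagen chains, 12 rose and 2 fell, COL7A1 and COL5A2. The cartilage collagen COL2A1 had 484 and 338 CPM with ETV4AAA, 10.8 and 14 with ETV4WT and 1.42 and 1.21 with eGFP (5.05 ± 0.25), and COL8A1 (4.11 ± 0.26) and COL9A2 (3.05 ± 0.25) were other examples.

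Of 14 S100 calcium-binding proteins tested, 11 rose and 0 fell (median 2.11, 2.06 at the bound). Among all genes tested 13.9% rose and 9.62% fell. S100A9, an alarmin of myeloid cells and squamous epithelium, had 70.4 and 66.5 CPM with ETV4AAA, 0.457 and 0.347 with ETV4WT and 0 in both eGFP libraries (7.41 ± 0.29, adjusted p = 2.49e-08). S100A6 had 237 and 236 CPM with ETV4AAA and 59.5 and 46.3 with ETV4WT (2.16 ± 0.18), and S100A16 had 8.05 and 8.16 with ETV4AAA and 0.109 and 0.163 with ETV4WT (5.86 ± 0.32). S100A8, the partner of S100A9, reached 2.55 and 2.61 CPM with ETV4AAA (5.29 ± 0.47), a call lost with the DESeq2 Wald test (adjusted p = 0.553).

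Prostate lineage genes moved in opposite directions by list. Of 17 tested basal genes, 13 rose and 1 fell (median 2.18). Of 28 androgen-responsive and luminal genes, 2 rose and 15 fell (median -0.65). Both stand beside all genes tested, of which 13.9% rose and 9.62% fell. The nerve growth factor receptor NGFR, a basal marker, had 54.2 and 44.2 CPM with ETV4AAA, 0.457 and 0.551 with ETV4WT and 0.615 and 0.329 with eGFP (6.60 ± 0.36, adjusted p = 8.82e-08). LAMB3 and ITGA6, given above, are further members, and BCL2 was the member that fell (-0.79 ± 0.16). The basal keratin KRT5 rose, with 0.688 and 0.475 CPM with ETV4AAA, or 51 counts in both libraries together, against 0.0218 and 0 CPM with ETV4WT, or 1 count (adjusted p = 0.00191). The basal factor TP63 (0.422 and 0.356 CPM with ETV4AAA against 0.0653 and 0.122 with ETV4WT, 2.01 ± 0.70) did not pass (adjusted p = 0.0578).

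Among luminal genes the metalloreductase STEAP2 had 95.7 and 101 CPM with ETV4AAA, 224 and 242 with ETV4WT and 281 and 320 with eGFP (-1.24 ± 0.16, adjusted p = 0.000105). Its 3 groups did not overlap, with ETV4AAA lowest. The sugar transporter SLC45A3 (-1.26 ± 0.17), the folate hydrolase FOLH1 (-1.01 ± 0.13) and the kallikrein KLK2 (-0.98 ± 0.13) also fell. KLK3, prostate-specific antigen, had 31.1 and 29.2 CPM with ETV4AAA, 53.3 and 48.6 with ETV4WT and 20.5 and 19.8 with eGFP (-0.76 ± 0.15), so that for KLK3 eGFP was the lowest group. STEAP4 went the other way, at 55.6 and 57.3 CPM with ETV4AAA against 1.89 and 2.04 with ETV4WT (4.84 ± 0.24). The keratin KRT8 (781 and 640 CPM with ETV4AAA against 775 and 775 with ETV4WT, -0.13 ± 0.27) and HOXB13 (0.12 ± 0.17) did not pass.

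Of 30 mesenchymal genes, 13 rose and 0 fell (median 0.60, 0.64 at the bound). SPARC, TGFBI and TWIST1 are members, as is the microfibril protein FBN1, with 48.9 and 40.6 CPM with ETV4AAA and 1.42 and 1.47 with ETV4WT (4.95 ± 0.18, adjusted p = 7.17e-09). Fibronectin, FN1, had 329 and 287 CPM with ETV4AAA, 88.6 and 111 with ETV4WT and 26.5 and 25.3 with eGFP (1.63 ± 0.13) and was named after its values were seen. Of 34 epithelial genes, 4 rose and 3 fell (median -0.09), near the shares of all genes tested, 13.9% higher and 9.62% lower. E-cadherin, CDH1, had 341 and 315 CPM with ETV4AAA and 270 and 321 with ETV4WT, values that overlapped (0.15 ± 0.11, adjusted p = 0.379).

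Cell cycle genes were lower with ETV4AAA. Of 32 DNA replication and G1/S genes, 0 rose and 29 fell, and of 30 mitosis and G2/M genes, 0 rose and all 30 fell. The median log2 change was -0.99 in each list. Among all genes tested 13.9% rose and 9.62% fell. The replication clamp PCNA had 141 and 152 CPM in ETV4AAA libraries, 363 and 301 in ETV4WT libraries and 330 and 346 in eGFP libraries (-1.18 ± 0.12, adjusted p = 1.46e-05). The helicase subunit MCM4 had 120 and 122 CPM with ETV4AAA, 253 and 255 with ETV4WT and 306 and 306 with eGFP (-1.07 ± 0.10), and the replisome subunit GINS2 had 38.8 and 41.4, 96.8 and 86.1, and 106 and 112 in that order of groups (-1.19 ± 0.12). Ribonucleotide reductase RRM2 fell by 1.23 ± 0.12. Of the mitotic genes, the kinesin KIF20A had 42.4 and 48.9 CPM with ETV4AAA and 94.2 and 96.7 with ETV4WT (-1.06 ± 0.11), BIRC5, or survivin, 100 and 104 against 224 and 199 (-1.05 ± 0.12) and the ubiquitin-conjugating enzyme UBE2C 65.1 and 71.9 against 154 and 133 (-1.07 ± 0.12). In these genes the ETV4AAA libraries were lower than every ETV4WT and eGFP library, and ETV4WT did not differ from eGFP by the test (lowest adjusted p of these 7, 0.0827). The licensing factor CDT1 (42.2 and 31.1 CPM with ETV4AAA against 64.9 and 80.0 with ETV4WT, -0.98 ± 0.37) did not pass (adjusted p = 0.0808).

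Of 22 tested senescence and secretory genes, 15 rose and 2 fell (median 2.39, 2.35 at the bound). The same shares over all genes tested were 13.9% and 9.62%. Insulin-like growth factor binding proteins were among them. IGFBP3 had 394 and 381 CPM with ETV4AAA, 97.0 and 95.2 with ETV4WT and 44.6 and 44.3 with eGFP (2.01 ± 0.11, adjusted p = 1.10e-07). IGFBP7 had 15.5 and 15.8 CPM with ETV4AAA and 0.196 and 0.184 with ETV4WT (6.35 ± 0.26), and IGFBP5 had 26.4 and 23.6 with ETV4AAA and 1.87 and 2.53 with ETV4WT (3.50 ± 0.19). The protease inhibitor SERPINE2 had 137 and 141 CPM with ETV4AAA and 8.82 and 8.37 with ETV4WT (4.01 ± 0.14). The 2 that fell were LMNB1, a lamin whose loss marks senescent cells (88.5 and 85.5 CPM with ETV4AAA, 176 and 193 with ETV4WT, 242 and 258 with eGFP, -1.08 ± 0.11), and CDKN1A, the p21 cyclin-dependent kinase inhibitor. CDKN1A had 178 and 172 CPM with ETV4AAA, 242 and 241 with ETV4WT and 68.6 and 59.5 with eGFP. Its log2 change of -0.47 ± 0.16 (adjusted p = 0.0472) was lost with DESeq2 size factors (adjusted p = 0.0504) and without any single library of the 4. LMNB1 and CDKN1A were named after their values were seen.

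Of 30 p53 targets tested, 7 rose and 3 fell (median -0.16), and 4 rose without ETV4AAA replicate 2 or without ETV4WT replicate 2. For comparison, 13.9% of all genes tested rose and 9.62% fell. The polo-like kinase PLK2 had 248 and 245 CPM with ETV4AAA and 7.64 and 7.88 with ETV4WT (4.99 ± 0.16), and the stress cytokine GDF15 had 324 and 222 with ETV4AAA and 31.2 and 40.4 with ETV4WT (2.93 ± 0.33). Of 18 BCL2 family genes, 8 rose and 1 fell, but 3 to 5 rose when any single library of the 4 was left out. The survival factor BCL2L1 had 170 and 155 CPM with ETV4AAA and 53.8 and 53 with ETV4WT (1.61 ± 0.18), the death-promoting HRK rose by 2.88 ± 0.20 and BCL2 was the fall.

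Against 13.9% of all genes tested that rose and 9.62% that fell, signalling lists gave these counts. Of 22 Notch pathway genes, 12 rose and 3 fell (median 1.07). The target HES1 had 232 and 224 CPM with ETV4AAA and 55.9 and 50.4 with ETV4WT (2.10 ± 0.11, adjusted p = 8.21e-08), the coactivator MAML2 had 13.3 and 13.7 with ETV4AAA and 0.348 and 0.572 with ETV4WT (4.86 ± 0.22), and the ligand DLL3 rose by 2.78 ± 0.19. Of 25 TGF-beta and BMP genes, 12 rose and 2 fell (median 0.64), among them the ligand BMP4 (26.2 and 22.1 CPM with ETV4AAA against 1.20 and 1.12 with ETV4WT, 4.38 ± 0.19), the receptor TGFBR2 (2.68 ± 0.17) and the latency protein LTBP1 (1.96 ± 0.12). Of 31 Wnt pathway genes, 11 rose and 2 fell, and 7 rose without ETV4AAA replicate 1 or without ETV4WT replicate 1. The ligand WNT5B had 74.3 and 58.2 CPM with ETV4AAA and 1.20 and 1.41 with ETV4WT (5.66 ± 0.32), and the receptor FZD4 (1.53 ± 0.12) and the inhibitor DKK1 (1.43 ± 0.14) rose less.

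Of 31 receptor tyrosine kinases, 9 rose and 2 fell, where 13.9% of all genes tested rose and 9.62% fell. Their median log2 change was 0.12, or 0.40 at the bound, against -0.03 over all genes. FGFR1 had 215 and 181 CPM with ETV4AAA, 13.1 and 15.6 with ETV4WT and 16.4 and 12.4 with eGFP (3.79 ± 0.22, adjusted p = 1.65e-07). KDR, a receptor for VEGF, had 4.41 and 4.82 CPM with ETV4AAA and 0 in every ETV4WT and eGFP library, at least 146-fold higher. MET, the hepatocyte growth factor receptor, fell, with 3.70 and 3.30 CPM with ETV4AAA, 8.19 and 9.17 with ETV4WT and 11.1 and 12.9 with eGFP (-1.31 ± 0.16).

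Of 18 tested NF-kB targets and chemokines, 7 rose and 1 fell, where 13.9% of all genes tested rose and 9.62% fell. The feedback inhibitors TNFAIP3 (13.8 and 12.6 CPM with ETV4AAA against 0.566 and 0.429 with ETV4WT, 4.73 ± 0.21) and NFKBIA (198 and 199 against 70.4 and 64.1, 1.56 ± 0.15) rose, as did the adhesion molecule ICAM1 (32.8 and 25.6 against 2.53 and 2.39, 3.57 ± 0.26). Of 17 MHC class I and antigen presentation genes, 6 rose and 0 fell. HLA-B had 69.7 and 62.5 CPM with ETV4AAA, 10.1 and 8.72 with ETV4WT and 4.64 and 4.28 with eGFP (2.81 ± 0.23), and HLA-E (2.27 ± 0.19) and HLA-C (1.87 ± 0.19) rose too; reads of these near-identical genes may be assigned to either, so their single values are uncertain. Of 31 interferon-stimulated genes, 9 rose and 3 fell (median 0.48), and the falls numbered 1 without either ETV4AAA library or without ETV4WT replicate 1. SAMD9 rose (2.97 ± 0.38), OAS3 fell (22.0 and 18.7 CPM with ETV4AAA against 39.7 and 51.5 with ETV4WT, -1.17 ± 0.18), and the guanylate-binding protein GBP2, an interferon-induced gene outside that list, had 23.2 and 24.0 CPM with ETV4AAA and 0.392 and 0.490 with ETV4WT (5.73 ± 0.18).

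Of 31 sterol and fatty acid synthesis genes, 0 rose and 14 fell (median -0.55), and 7 fell without ETV4AAA replicate 1 and 9 without ETV4WT replicate 1. The desaturase SCD had 1046 and 1015 CPM with ETV4AAA, 1820 and 2024 with ETV4WT and 2384 and 2542 with eGFP (-0.90 ± 0.11, adjusted p = 0.000111). INSIG1, the sterol sensor (170 and 178 against 319 and 294, -0.81 ± 0.10) and the squalene synthase FDFT1 (-0.75 ± 0.11) also fell. Of 28 amino acid stress genes, 4 rose and 6 fell, where 13.9% of all genes tested rose and 9.62% fell. The cystine transporter SLC7A11 had 38.4 and 39.2 CPM with ETV4AAA, 18.5 and 18.8 with ETV4WT and 48.9 and 52.1 with eGFP (1.06 ± 0.14), so ETV4WT was the lowest group for it as for TRIB3. Of 30 hypoxia and glycolysis genes, 3 rose and 6 fell, with 1 fall left without ETV4AAA replicate 1 and 3 without ETV4WT replicate 1; the vasodilator peptide gene ADM had 43.5 and 35.1 CPM with ETV4AAA and 5.09 and 4.55 with ETV4WT (3.03 ± 0.18).

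The 35 cytosolic ribosomal protein genes tested all had negative log2 changes, from -0.56 to -0.20, of which 0 rose and 5 fell. Their summed level was 63681 and 66841 CPM with ETV4AAA, 94576 and 76020 with ETV4WT and 57190 and 53395 with eGFP. For this sum ETV4WT was thus the highest group and eGFP the lowest. The falls numbered 0 without either ETV4AAA library or without ETV4WT replicate 1, and 16 without ETV4WT replicate 2. Their sign was negative at the median under every scaling tried. Of 13 mitochondrial transcripts 0 rose and 0 fell. Unfolded protein response genes had 4 rises and 1 fall of 20, heat shock chaperones 3 and 2 of 19, and antioxidant genes of NRF2 6 and 3 of 23. The shares over all genes tested were 13.9% higher and 9.62% lower. The 3 falls of NRF2 genes became 0 without ETV4AAA replicate 1 and 1 without any other single library of the 4.

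Markers of other cells were examined because some of the largest rises are known from leukocytes, endothelium or skin. The leukocyte marker PTPRC had 0 and 0.0237 CPM with ETV4AAA and 0 in both ETV4WT libraries, and CD3E, VWF and CDH5 were at most 0.0949 CPM with ETV4AAA. Of 18 immune cell markers, 7 could be tested, of which 2 rose and 1 fell, and their summed level was 12 and 11.2 CPM with ETV4AAA against 6.44 and 6.61 with ETV4WT. Of 15 tested stromal and endothelial markers, 7 rose and 1 fell, with sums of 99.5 and 112 CPM with ETV4AAA against 18.4 and 21.6 with ETV4WT. The pericyte gene RGS5 made up most of that sum (74.2 and 87.3 CPM with ETV4AAA against 3.18 and 3.2 with ETV4WT, 4.66 ± 0.19), and PECAM1, of endothelium, was at least 21.8-fold higher at 0.666 and 0.712 CPM with ETV4AAA against 0 with ETV4WT. In the PC3 libraries, also of a prostate cancer line, PECAM1 had 12.4 to 22.4 CPM and COL1A2, on the same list, 287 to 384. These 2 genes are thus not confined to endothelium or stroma in this series, whereas CDH5 and VWF were at most 0.123 CPM in PC3. The part of such cells in the rises was not tested. Of 18 tested neuroendocrine genes, 6 rose and 3 fell, where 13.9% of all genes tested rose and 9.62% fell. The granin SCG3 had 627 and 705 CPM with ETV4AAA and 65.5 and 63.6 with ETV4WT (3.37 ± 0.15), SCG2 (2.92 ± 0.25) and the synaptotagmin SYT11 (4.68 ± 0.24) rose, and the vesicle protein SYP did not pass (124 and 116 against 129 and 131, -0.11 ± 0.18).

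PC3 cells were handled in the same series, so their markers were also read. Of 12 PC3 markers low in 22Rv1, 7 rose and 1 fell, and of 10 markers of 22Rv1 low in PC3, 0 rose and 7 fell (median -0.88). Over all genes tested, 13.9% rose and 9.62% fell. Among the 7 rises, PLAU had a log2 change of 5.44 and CAV2 one of 2.14 ± 0.26. CAV1 rose by 2.18 ± 0.21, with 10.3 and 11.2 CPM with ETV4AAA and 2.70 and 2.04 with ETV4WT. In the PC3 libraries CAV1 had 182 to 421 CPM. MET, given above, was the fall. AXL, a kinase of PC3, had 0.0222 and 0.0237 CPM in the 22Rv1 ETV4AAA libraries, 0.0218 and 0 in the ETV4WT libraries and 8.15 to 12.5 CPM in the PC3 libraries. VIM had 11.6 and 12.5 CPM in ETV4AAA libraries and 7.75 and 7.41 in ETV4WT libraries, against at least 473 in PC3. TGFBI, NPR1 and S100A9, high in 22Rv1 with ETV4AAA, were at most 0.282 CPM in any PC3 library. KRT75 had 58.8 to 136 CPM in the 6 PC3 libraries, and MYL10 had 48.9 and 36.6 CPM with ETV4AAA, 45.2 and 33.2 with ETV4WT and 0.845 and 0.989 with eGFP there. ARHGDIB, among the largest rises, had 41.0 to 71.3 CPM in the 6 PC3 libraries. HOXB13, on the list of 22Rv1 markers, was not low in PC3 (377 to 813 CPM). The part of PC3 cells in the result was not tested.

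The same comparison was made in PC3. There, ETV4 had 223 and 109 CPM with ETV4AAA, 215 and 112 with ETV4WT and 116 and 126 with eGFP, so that the libraries numbered 2 with either form did not exceed eGFP. The part of this in the differences between the lines was not tested. In PC3 2550 genes (11.0%) changed, 848 higher (3.65%) and 1702 lower (7.32%), and the difference between the lines, tested as an interaction, passed in 4872 genes (21.0%), 3027 (13.0%) more positive and 1845 (7.94%) more negative in 22Rv1. Leaving out both PC3 libraries numbered 2, a choice made after seeing the data, gave 4280. The more negative genes numbered 1000 without 22Rv1 ETV4AAA replicate 1 and 1208 without 22Rv1 ETV4WT replicate 1.

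Cell cycle and ERK output genes were among those that differed between the lines. Of the 32 DNA replication and G1/S genes, 15 rose and 0 fell in PC3. PCNA had 251 and 266 CPM with ETV4AAA and 153 and 158 with ETV4WT in PC3 (0.74 ± 0.12), and its log2 change in 22Rv1 minus that in PC3 was -1.91 ± 0.16 (adjusted p = 7.22e-06). The same held for MCM4 (a difference of -1.64 ± 0.14 between the lines) and RRM2 (-1.92 ± 0.17). DUSP6 had 96.5 and 111 CPM with ETV4AAA and 112 and 124 with ETV4WT in PC3, and its change was 4.69 ± 0.17 more positive in 22Rv1 (adjusted p = 3.08e-08); SPRY4 differed by 4.53 ± 0.20. SPARC had 47.5 and 43.9 CPM with ETV4AAA and 58.7 and 52.9 with ETV4WT there, and differed by 5.33 ± 0.19. HAS3 rose in both lines, by 0.62 ± 0.12 in PC3, and differed by 4.73 ± 0.19.

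**Figure D5:**
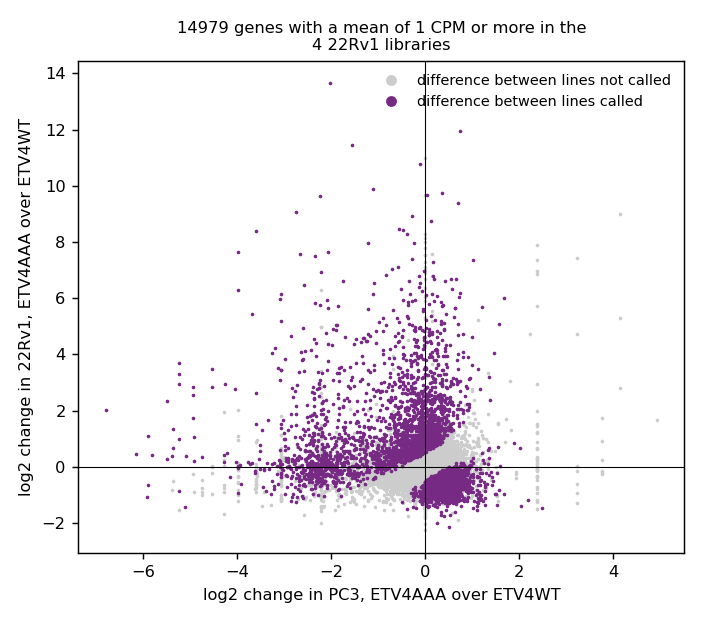
Log2 change of ETV4AAA over ETV4WT in 22Rv1 (vertical axis) against that in PC3 (horizontal axis) for the 14979 genes with a mean of at least 1 CPM in the 4 22Rv1 libraries; purple marks the 3940 whose difference between the lines passed. The tall column of purple genes near 0 on the horizontal axis rose in 22Rv1, and genes at few counts in PC3 form the sparse vertical lines.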

How the data were processed

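Gene-level read counts of 12 libraries were deposited by the authors as whole numbers, not normalised. Per the submitters' processing notes, FastQC 0.11.9, STAR 2.5.3a and the GRCh38 build were used. No source used here names the counting program, its strand setting or the annotation release, so overlapping and antisense genes cannot be told apart. Columns were matched to samples by their titles. Genes were kept by filterByExpr, which left 23238, scaled by TMM and fitted over all 12 libraries with edgeR 4.0.16 (R 4.3.3). Quasi-likelihood tests with Benjamini-Hochberg adjustment gave every adjusted p, at a threshold of 0.05. SE is the absolute log2 change divided by the square root of F. Where a group had 0 counts, folds were computed against 3 counts for that group, and ratios over 1 to 3 counts have exact 95% intervals, which cover counting error only. The fit was also run on simulated counts. There fewer genes changed than here and all of them were well expressed, so that run does not bear on genes at few or no counts.

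Named genes were the 15 largest rises and 15 largest falls among called protein-coding genes with at least 5 CPM in the higher group, the lowest adjusted p values, up to 4 called members and 1 uncalled member of each of 39 lists, the largest differences between the lines, and ETV4, ETV1, ETV5 and COP1. The largest rises and falls and the lowest p values were taken only from genes whose groups did not overlap. Genes outside that rule (KLK3, KRT5, TP63, VIM, COL5A2, CDH1, SYP and those marked in the text) were chosen after their values were seen. AXL, PTPRC, CD3E, VWF and CDH5 were also outside that rule and were read as markers of other cells. Members and lists were chosen with earlier results of these data known. Alternatives were DESeq2 1.42.0 size factors and its Wald test, upper-quartile factors, limma-voom (limma 3.58.1), other filters, fewer libraries in the fit, a replicate block and leaving out each library. Some named genes are not reported here.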

Additional observations from a re-analysis of the deposited data

Results flagged for a closer look

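The difference between ETV4AAA and ETV4WT was not the same in 22Rv1 as in PC3 for 4872 genes (edgeR interaction test, adjusted p under 0.05), which is why these results are listed. In PC3 the libraries numbered 2 with either form of ETV4 did not exceed eGFP in ETV4 mRNA, and the part of this in the differences was not tested.

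The largest positive differences were in genes that ETV4WT left at few or no counts in 22Rv1. PAEP was at least 1070-fold higher with ETV4AAA in 22Rv1, while in PC3 it had 0.760 and 0.478 CPM with ETV4AAA and 3.08 and 2.03 with ETV4WT (adjusted p of the difference 8.23e-07). CORO2B was at least 232-fold and LILRB1 at least 333-fold higher in 22Rv1, and both were at most 0.186 CPM in those PC3 libraries (adjusted p = 1.73e-05 and 0.00243). CLEC1A had a ratio of 677 in 22Rv1, against 0.0205 and 0.215 CPM with ETV4AAA and 0.725 and 0.804 with ETV4WT in PC3 (adjusted p = 3.55e-06). GABRR1 differed by 11.97 ± 2.06 on the log2 scale, a fitted value that rests on 0 counts with ETV4AAA in PC3 (adjusted p = 0.00243).

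In the large negative differences given here the gene fell in 22Rv1 and was higher with ETV4AAA in PC3. FAM111B, a protease linked to DNA replication, had 92.6 and 105 CPM with ETV4AAA and 228 and 215 with ETV4WT in 22Rv1. In PC3 it had 52.3 and 62.9 CPM with ETV4AAA and 12 and 13.2 with ETV4WT, a difference between the lines of -3.35 ± 0.19 (adjusted p = 3.16e-07). The cadherin CDH7 differed by -3.42 ± 0.30, DTX4 by -2.65 ± 0.29 and PRR15L by -2.63 ± 0.29.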

How the results depend on the processing

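Over the scalings, filters, tools and smaller fits tried, 4669 (DESeq2 Wald test) to 6170 genes changed (5455 in the reported fit), and 0 of the 5455 reversed direction under any alternative. With 1 library left out the changed genes numbered 3437 to 4172, the falls 1015 to 1675, and the genes more negative in 22Rv1 than in PC3 1000 to 1740. That last count was 886 when only the libraries compared were fitted. The share of changed genes that rose was 59.0%, against 70.5% without ETV4AAA replicate 1. The replicate block gave 5503 genes. Deviations of libraries with the same number correlated at 0.50 between ETV4AAA and eGFP, at -0.37 between ETV4AAA and ETV4WT and at -0.32 between ETV4WT and eGFP, so the numbers as given do not pair all 3 groups. With the ETV4WT numbers crossed, a choice made after seeing the data, 6966 genes changed; whether the ETV4WT numbers are crossed was not tested. ETV4's log2 change lay between -0.64 and -0.17 with 1 library left out. Of 150 named genes, 143 to 149 kept their call over the alternatives. These named genes had mostly been picked for a call in this same comparison, so their count does not describe all 5455 changed genes. Of the 5455, 4533 kept their call and direction with the DESeq2 Wald test. With 2 libraries a group, a p that misses the threshold does not show equality.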

Other observations

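Genes beside the largest rises also rose often. Within 100 kb of the 15 largest rises, 36 other genes were tested, of which 19 rose and 1 fell, where 13.9% of all genes tested rose and 9.62% fell. Within 100 kb of the 15 largest falls, 55 were tested, of which 6 rose and 8 fell. The examples here were chosen after their values were seen. G0S2, a lipase inhibitor gene near CAMK1G, had 206 and 206 CPM with ETV4AAA, 4.94 and 3.84 with ETV4WT and 0.656 and 0.494 with eGFP (log2 5.55). MGP, the matrix Gla protein gene near ARHGDIB, had 16.7 and 21.9 CPM with ETV4AAA, 0.261 and 0.245 with ETV4WT and 0.205 and 0.206 with eGFP (log2 6.24). The lectin receptor gene CLEC12B, near both CLEC1A and CLEC7A, had 2.20 and 2.75 CPM with ETV4AAA and 0 in every ETV4WT and eGFP library. Thrombomodulin, THBD, near CD93, had 2.97 and 2.06 CPM with ETV4AAA and 0 and 0.0204 with ETV4WT. Reads of related neighbours such as the CLEC genes could be shared, and the part of this was not tested.

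Noncoding genes moved in both directions. AL023802.1, a lincRNA, had 23.6 and 20.1 CPM with ETV4AAA, 0.109 and 0.122 with ETV4WT and 0.144 and 0.124 with eGFP (log2 7.53 ± 0.27, edgeR adjusted p = 1.11e-07). EWSAT1, a lincRNA known from Ewing sarcoma, had 5.39 and 5.74 CPM with ETV4AAA, 0.131 and 0.163 with ETV4WT and 0.226 and 0.0206 with eGFP (5.21 ± 0.40). AL589182.1 fell, with 1.77 and 1.83 CPM with ETV4AAA against 6.38 and 5.72 with ETV4WT (-1.75 ± 0.30).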
